A study of Mus musculus with 12 samples.

Results

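Interferon-induced genes were followed in the cervix of pregnant mice. The 39 genes are a list of well-known targets of interferon signalling, chosen by name, but with earlier results of these data known. Each gene was read through the Affymetrix probe set that the platform annotation pairs with its symbol alone, and where a gene had several, through the one with the highest mean log2 value over the 12 arrays. The 39 genes had 60 probe sets in all, 37 of the 39 genes had at least 1, and the expression of Isg15 and Ifi44 was not analysed here. The whole table gave 18194 genes. A gene entered the test where its log2 value was above 4 on at least 6 of the 12 arrays, which kept 8795 genes and 19 of the 37.

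The study compared 6 arrays of cervix from CD1 mice, an outbred strain, treated with MPA and 6 from mice given vehicle. MPA, medroxyprogesterone acetate, is a progestin drug that acts on the progesterone receptor and also on the glucocorticoid receptor. The MPA mice were pregnant CD1 dams at gestation day 15 that had received 1 mg of MPA per dam under the skin for 48 h, and the vehicle mice were pregnant CD1 dams at the same gestation day that had received ethanol in equal volume. No source used here states that every array stands for a separate dam, so a p-value here measures only how the 12 samples scatter, and part of that scatter may be technical.

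Interferons are secreted when a cell senses the nucleic acids of a virus, or when lymphocytes are activated. They bind receptors on neighbouring cells, and the receptors' kinases switch on STAT and IRF transcription factors, which bind an interferon-stimulated response element (ISRE) or a gamma-activated site (GAS) near the start of the target genes. The products degrade or trap viral RNA, hold back budding virus, attack pathogen vacuoles and feed peptides to class I molecules. In the reproductive tract the same genes are known for barrier defence, for epithelial interferon epsilon and for the response of the pregnant uterus to interferons.

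The promoters of 4 members are shown because their values carry the results below and because they hold the core of the ISRE. Each line gives the 250 bases before the transcription start, 5′ to 3′ on the strand of the gene, from RefSeq on GRCm38.p6. Capitals mark the ISRE core, which is GAAA, any 2 bases and GAAA again, read on either strand, so that a match on the other strand shows as TTTC, any 2 bases and TTTC, and 2 overlapping matches in Bst2 merge into 1 run of capitals. Ifit3 was added after its values were seen.
Igtp, chr11:58199306-58199555, plus strand: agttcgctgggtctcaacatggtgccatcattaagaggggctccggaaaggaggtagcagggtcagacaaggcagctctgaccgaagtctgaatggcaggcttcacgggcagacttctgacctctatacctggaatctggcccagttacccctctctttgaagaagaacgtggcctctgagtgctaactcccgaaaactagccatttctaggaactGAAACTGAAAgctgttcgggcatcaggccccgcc
Bst2, chr8:71537473-71537722, minus strand: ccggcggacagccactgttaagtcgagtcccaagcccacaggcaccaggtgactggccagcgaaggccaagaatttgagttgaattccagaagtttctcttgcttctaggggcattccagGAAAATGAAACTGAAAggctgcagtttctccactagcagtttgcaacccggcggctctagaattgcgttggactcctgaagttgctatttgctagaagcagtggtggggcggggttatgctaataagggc
Rsad2, chr12:26456453-26456702, minus strand: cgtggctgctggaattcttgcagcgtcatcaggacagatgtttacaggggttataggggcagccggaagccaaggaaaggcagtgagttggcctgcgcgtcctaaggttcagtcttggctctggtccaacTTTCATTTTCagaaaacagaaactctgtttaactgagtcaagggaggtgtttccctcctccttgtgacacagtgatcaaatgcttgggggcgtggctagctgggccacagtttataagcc
Ifit3, chr19:34583279-34583528, plus strand: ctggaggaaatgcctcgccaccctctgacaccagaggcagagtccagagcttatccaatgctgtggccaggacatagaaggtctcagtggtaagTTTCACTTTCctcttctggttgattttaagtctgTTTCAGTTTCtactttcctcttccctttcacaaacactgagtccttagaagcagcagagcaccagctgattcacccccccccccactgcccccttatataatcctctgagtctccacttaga

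The ISRE core stood in the promoters of 12 of the 29 members with a RefSeq promoter (41.4%), against 936 of 27025 promoters of the same length over all genes (3.46%). It was present in 6 of 16 tested members and in 5 of 11 members below the filter, so that members too dim to be tested carried it as well. The 12 were Bst2, Gbp2, Gbp3, Ifit1, Ifit3, Igtp, Irgm1, Isg15, Oas1a, Oas3, Rsad2 and Stat2. Isg15 is counted here by its promoter alone, since its expression was not analysed. The first base of the match lay 34 bases before the start in Igtp, 130 and 124 in Bst2, 120 in Rsad2, and 156 and 122 in Ifit3. A match is a description of these letters and no proof of a bound site.

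The measured members passed the filter about as often as other genes, with 19 of 37 tested (51.4%), against 48.3% of all 18194 genes. The log2 scale of the table ran from 2.13 to 16.25. Of the 37 members, 12 (32.4%) never exceeded a log2 value of 4 on any array, against 45.9% of all genes. These were Irf7, Stat2, Ddx58, Dhx58, Zbp1, Mx2, Oas2, Oas3, Oasl1, Usp18, Irgm1 and Tap1. Another 6, namely Ifit2, Ifit3, Oasl2, Gbp3, Iigp1 and Tap2, exceeded 4 on too few arrays to be tested. Detection flags were not used, so a value near the bottom is a dim probe set and does not show that a transcript was missing.

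None of the 19 tested members passed the limma test of MPA against vehicle. With a Benjamini-Hochberg adjusted p under 0.05, 0 of 19 members were called, against a background of 0.0114% of the genes tested (1 of 8795). The lowest adjusted p of a member was 0.989, for Mx1, and that of every other member was 1.00. Unadjusted, 1 member, Mx1, had a p under 0.05, which is 5.26% of the 19 against a background of 5.00%. The median member difference, MPA minus vehicle, was 0.16 on the log2 scale, against 0.02 over all genes tested. The difference was positive for 14 members (73.7%) and negative for 5, against 56.3% positive over all genes. The 6 MPA arrays and the 6 vehicle arrays overlapped in every one of the 19, so that 0 were without overlap (background 0.341%).

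The 95% confidence interval of the difference held 0 for 18 of the 19 members and lay within 1 log2 unit on both sides of 0 for 13. For the other 6 a change past 1 unit in at least 1 direction was within the interval. Fkbp5, whose product regulates steroid receptors and which glucocorticoids and progestins are known to induce, read between 7.68 and 8.18 on the MPA arrays and between 6.45 and 7.29 on the vehicle arrays, which do not overlap. Its difference was 0.86 (SE 0.14), and its adjusted p over all genes was 0.149.

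**Figure D1:**
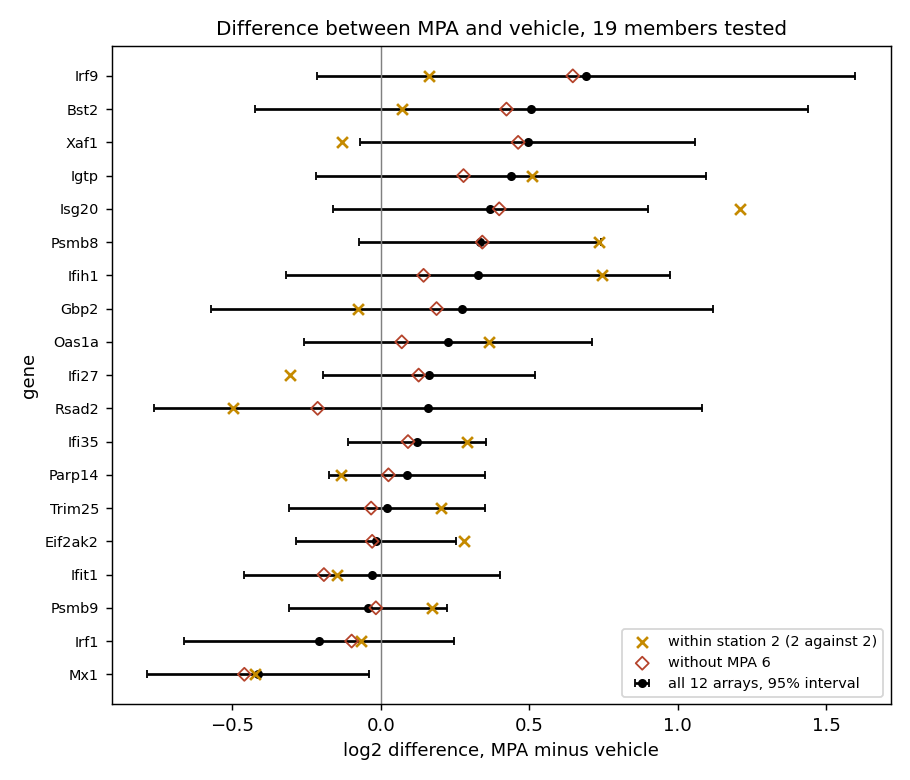
Log2 difference (x axis, MPA minus vehicle, n = 6 each) of the 19 tested members, in order of size, with the 95% confidence interval of the limma fit as bars, the value within station 2 as crosses and that without MPA 6 as diamonds. Only the interval of Mx1, with a difference of -0.41, lies wholly on one side of 0.

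The arrays differed from each other in ways that touch these genes. They were washed on separate fluidics stations, and station 2 alone held both groups (MPA 1 and MPA 2 beside vehicle 5 and vehicle 6). Station 4 held MPA 3 to MPA 6 and station 1 held vehicle 1 to vehicle 4. Within station 2 the difference had the same sign as over all arrays in 12 of the 19 members (63.2%, against 61.9% of all genes), and 8 of 19 did not overlap (42.1%, against 37.0%). MPA 6 had the largest 3′ minus 5′ difference of the Actb control probe sets, 1.25 on the log2 scale against 0.36 to 0.71 on the other 11 arrays, and of the Gapdh sets, 5.61 against 4.14 to 4.94. MPA 2 had the lowest summed linear signal of fibroblast and smooth muscle markers and MPA 5 the highest. The tissue markers Pgr, Esr1, Hoxa10 and Hoxa11 were all tested, and Hoxa13 did not exceed 4 on any array. Hoxd13 did not pass the filter and ran from 2.68 to 5.60 over the arrays. Hoxa10 and Hoxa11 had their lowest values on MPA 2, at 5.01 and 2.65, and their highest on vehicle 2, at 8.77 and 6.73. In bulk tissue, fewer cells of a type and less RNA per cell cannot be told apart.

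Among the transcription factors that carry the interferon signal, 2 of 4 were tested and neither passed. Irf9 is the DNA-binding subunit of the complex that recognises the ISRE. Irf9 (Entrez gene 16391, chromosome 14) read 4.65, 4.57, 4.66, 4.49, 7.25 and 5.39 on MPA 1 to MPA 6, against 4.06, 4.32, 4.95, 4.63, 4.17 and 4.72 on vehicle 1 to vehicle 6. MPA 5 stood far above the other arrays, MPA 6 was also above every vehicle array, and the other 4 MPA arrays overlapped the vehicle arrays. The difference was 0.69 (SE 0.42), 0.28 without MPA 5 and 0.16 within station 2, with an adjusted p of 1.00 by limma. Its SD over the 12 arrays was 0.84, higher than in 95.3% of the genes tested.

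Irf1, an early transcription factor of the interferon gamma response, had log2 values between 5.94 and 7.04 on MPA arrays and between 6.06 and 6.92 on vehicle arrays, with a difference of -0.21 (SE 0.21). The groups overlapped along nearly their whole range. Stat2, the partner of Irf9 in the same complex, lay between 2.65 and 3.12 on MPA arrays and between 2.88 and 3.51 on vehicle arrays. Irf7, the amplifier of interferon alpha production, did not exceed 2.39 on MPA arrays and 2.40 on vehicle arrays.

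The cytoplasmic sensors were dim apart from Ifih1. Ifih1, also called MDA5, binds long double-stranded RNA, and its log2 value ran between 3.77 and 5.65 on MPA arrays and between 4.08 and 5.17 on vehicle arrays. The highest and the lowest of all 12 arrays were both MPA arrays, MPA 6 and MPA 5. Its difference was 0.33 (SE 0.30), or 0.14 without MPA 6 and 0.52 without MPA 5. Ddx58, which codes for RIG-I, the sensor of short RNA with a triphosphate end, had a mean of 3.35 ± 0.28 in MPA and 3.31 ± 0.27 in vehicle (SD, n = 6 each). Dhx58, a regulator of these sensors, had 2.49 ± 0.14 in MPA and 2.38 ± 0.01 in vehicle, and Zbp1, a sensor of Z-form nucleic acid that can trigger cell death, had 2.48 ± 0.01 in MPA and 2.49 ± 0.09 in vehicle. Both sit at the bottom of the scale, where a difference cannot be read.

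Antiviral effectors made up the largest role, with 14 members, of which 7 were tested, 4 with a positive and 3 with a negative difference, and 0 called. Their median difference was 0.16. Mx1 codes for a dynamin-like GTPase that blocks influenza and related viruses in the nucleus. Mx1 (Entrez gene 17857, chromosome 16) read 5.56, 6.05, 5.81, 5.58, 5.60 and 5.99 on MPA 1 to MPA 6, against 6.25, 5.56, 6.21, 6.60, 6.51 and 5.93 on vehicle 1 to vehicle 6. All 6 MPA arrays were below the vehicle mean of 6.18, and the groups overlapped at vehicle 2 and vehicle 6. The difference was -0.41 (SE 0.17, 95% confidence interval -0.79 to -0.04), with an unadjusted p of 0.033 and an adjusted p of 0.989 by limma. It was -0.42 within station 2 and ran between -0.54 and -0.33 with each array left out. The share of all genes lower in MPA at this unadjusted threshold was 1.80%. Mx2, its neighbour on chromosome 16, stayed at 2.30 to 2.31 on MPA arrays and at 2.30 on vehicle arrays.

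Isg20 codes for an exonuclease that degrades single-stranded RNA. Isg20 (Entrez gene 57444, chromosome 7) read 10.54, 10.43, 9.47, 10.14, 9.26 and 9.79 on MPA 1 to MPA 6, against 9.41, 9.51, 9.95, 9.99, 9.61 and 8.94 on vehicle 1 to vehicle 6. MPA 1, MPA 2 and MPA 4 were above every vehicle array, while MPA 3 and MPA 5 were among the low ones. The difference was 0.37 (SE 0.24) over all arrays and 1.21 within station 2, where MPA 1 and MPA 2 stand against vehicle 5 and vehicle 6; the adjusted p was 1.00 in the first and 0.840 in the second (limma).

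Bst2, tetherin, holds budding virus particles on the cell surface. Bst2 (Entrez gene 69550, chromosome 8) read 5.51, 4.13, 6.09, 5.00, 6.28 and 5.91 on MPA 1 to MPA 6, against 4.57, 5.80, 5.70, 4.30, 3.88 and 5.62 on vehicle 1 to vehicle 6. Low arrays occurred in both groups, with vehicle 5, MPA 2 and vehicle 4 lowest. The difference was 0.51 (SE 0.43, adjusted p = 1.00 by limma), and it was 0.07 within station 2. Its promoter is the one above with 2 overlapping ISRE cores.

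Rsad2, viperin, makes a chain-terminating nucleotide that stops viral RNA synthesis. Rsad2 (Entrez gene 58185, chromosome 12) read 3.72, 3.55, 5.14, 4.13, 3.56 and 6.25 on MPA 1 to MPA 6, against 4.25, 4.58, 4.16, 4.15, 3.66 and 4.61 on vehicle 1 to vehicle 6. MPA held both extremes, with MPA 6 and MPA 3 highest and MPA 2 lowest. The difference of 0.16 (SE 0.42) turned to -0.21 without MPA 6 and to -0.50 within station 2. Its sign therefore rested on 1 array.

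Ifit2 binds viral RNA and slows translation, and did not pass the filter. Ifit2 (Entrez gene 15958, chromosome 19) read 3.57, 3.09, 4.74, 3.86, 5.46 and 5.35 on MPA 1 to MPA 6, against 4.10, 3.77, 4.03, 3.27, 3.28 and 3.70 on vehicle 1 to vehicle 6. The 3 highest arrays were MPA 5, MPA 6 and MPA 3, and the lowest was MPA 2. Its relative Ifit1 was tested, with a difference of -0.03 (SE 0.20) and values of 4.79 to 6.05 on MPA arrays and 4.95 to 5.61 on vehicle arrays. Ifit3, which stabilises the complex, exceeded 4 on MPA 6 only, at 4.81, and lay between 2.91 and 3.50 on the other MPA arrays and between 2.95 and 3.36 on vehicle arrays.

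The oligoadenylate synthases activate RNase L when they meet double-stranded RNA. Oas1a had a difference of 0.23 (SE 0.22), with 4.03 to 5.47 on MPA arrays and 3.89 to 4.81 on vehicle arrays. Oas2, Oas3 and Oasl1 lay between 2.29 and 2.50 on all 12 arrays. Oasl2 exceeded 4 on MPA 6 only, at 4.74. Eif2ak2, the kinase PKR that halts translation, differed by -0.02 (SE 0.12), with 6.58 to 7.11 on MPA arrays and 6.58 to 7.18 on vehicle arrays. The interval of Eif2ak2, -0.29 to 0.25, was among the narrow ones.

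**Figure D2:**
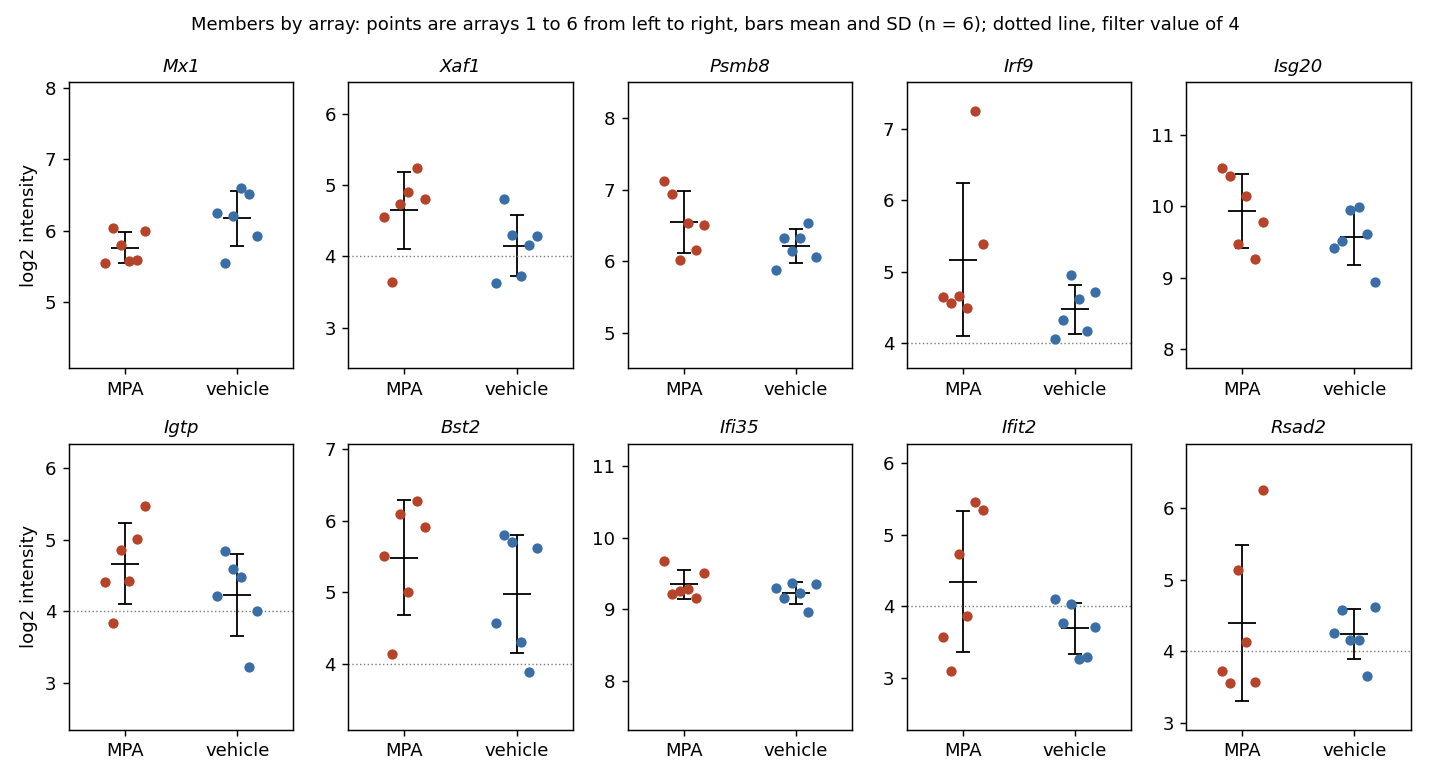
Log2 values (y axis) on each array of the members shown in full, with the 6 MPA arrays left of the 6 vehicle arrays; points are arrays, long ticks the group means, bars the SD (n = 6) and the dotted line the filter value of 4. The groups overlap in every panel, and Irf9 has a single MPA array at 7.25.

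ISG15 is a ubiquitin-like protein that is attached to newly made proteins. Of its system, Trim25, an E3 ligase that modifies RIG-I, was tested and differed by 0.02 (SE 0.15), with 10.43 to 11.24 on MPA arrays and 10.53 to 10.91 on vehicle arrays. Usp18, which removes ISG15 and dampens the receptor, lay between 2.32 and 2.36 on MPA arrays and between 2.32 and 2.38 on vehicle arrays.

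Of the interferon-inducible GTPases, which gather on pathogen vacuoles, 2 of 5 were tested, both with a positive difference and neither called. Igtp, an immunity-related GTPase, has the ISRE core nearest to its start among the 4 promoters shown. Igtp (Entrez gene 16145, chromosome 11) read 4.41, 3.83, 4.85, 4.43, 5.01 and 5.47 on MPA 1 to MPA 6, against 4.22, 4.84, 4.59, 4.48, 3.21 and 4.01 on vehicle 1 to vehicle 6. MPA 6, MPA 5 and MPA 3 were highest, and vehicle 5 and MPA 2 were lowest. The difference was 0.44 (SE 0.30, adjusted p = 1.00 by limma), 0.28 without MPA 6 and 0.51 within station 2.

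Gbp2, a guanylate-binding protein, differed by 0.27 (SE 0.39), or 0.11 without MPA 5, and its values ran from a low of 4.31 to a high of 6.70 on MPA arrays and of 4.47 to 6.16 on vehicle arrays. MPA 2 and MPA 5 were its lowest and highest arrays. Gbp3 exceeded 4 on 3 MPA arrays and on 0 vehicle arrays, with means of 4.07 ± 0.75 in MPA and 3.59 ± 0.35 in vehicle (SD, n = 6 each). Iigp1 exceeded 4 on MPA 6 only, at 4.01, and Irgm1 did not exceed 3.63 on MPA arrays and 2.79 on vehicle arrays.

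In antigen processing, 2 of 4 members were tested and neither passed. Psmb8 is a catalytic subunit of the immunoproteasome, which cuts peptides for class I molecules. Psmb8 (Entrez gene 16913, chromosome 17) read 7.13, 6.94, 6.02, 6.53, 6.15 and 6.51 on MPA 1 to MPA 6, against 5.88, 6.33, 6.15, 6.32, 6.54 and 6.06 on vehicle 1 to vehicle 6. MPA 1 and MPA 2, both of station 2, were above every vehicle array, and the other MPA arrays lay among them. The difference was 0.33 (SE 0.19, adjusted p = 1.00 by limma) and 0.74 within station 2. Its partner Psmb9 differed by -0.04 (SE 0.12). The peptide transporter subunits were dim, with Tap1 at no more than 3.72 and Tap2 above 4 on 2 MPA arrays and 3 vehicle arrays.

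The remaining 4 tested members had positive differences without passing. Xaf1 codes for an interferon-induced protein that counters inhibitors of apoptosis. Xaf1 (Entrez gene 327959, chromosome 11) read 4.55, 3.65, 4.73, 4.90, 5.24 and 4.81 on MPA 1 to MPA 6, against 3.63, 4.80, 4.30, 3.72, 4.17 and 4.29 on vehicle 1 to vehicle 6. On MPA, 5 of 6 arrays were above the vehicle mean of 4.15, and MPA 2 was as low as vehicle 1. The difference of 0.50 (SE 0.26, adjusted p = 1.00 by limma) turned to -0.13 within station 2.

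Ifi35 forms complexes with Nmi in the cytoplasm. Ifi35 (Entrez gene 70110, chromosome 11) read 9.67, 9.21, 9.25, 9.28, 9.16 and 9.50 on MPA 1 to MPA 6, against 9.30, 9.15, 9.36, 9.22, 8.95 and 9.35 on vehicle 1 to vehicle 6. MPA 1 and MPA 6 were above the vehicle arrays and the other 4 lay among them. The difference was 0.12 (SE 0.11, adjusted p = 1.00 by limma). Ifi27, an inner mitochondrial and nuclear membrane protein, differed by 0.16 (SE 0.16), and Parp14, an ADP-ribosyltransferase, by 0.09 (SE 0.12). For Eif2ak2, Ifi27, Ifi35 and Trim25 another bright probe set of the same gene, meaning one that passes the filter, had a difference of opposite sign, with sizes up to 0.22. The other Ifi35 probe sets were far dimmer than the one used, with means of 4.22 and 4.04 over the arrays against 9.28. The bright probe sets of Gbp2 (0.27 and 0.68) and of Parp14 (0.09 and 0.03) had the same sign, but those of Gbp2 differed in size. A probe set whose name ends in _s_at or _x_at can match more than 1 transcript, which holds for those used for Ifi35, Ifi27 and Trim25.

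Several members were high on MPA 6, a pattern that was seen in the values and then counted. On MPA 6, 8 of the 37 measured members (21.6%) were at least 1 log2 unit above the median of the other 11 arrays, against 1.39% of all genes measured (252 of 18194). Of the 19 tested members 3 were so (15.8%), against 1.60% of the genes tested. The 8 were Rsad2, 2.10 above that median, Oasl2 (1.87), Ifit3 (1.76), Gbp3 (1.68), Ifit2 (1.59), Ifih1 (1.30), Iigp1 (1.26) and Igtp (1.05). Oas1a stood just short of the threshold at 0.98 and Ifit1 at 0.85, and both were highest on MPA 6 as well. MPA 5 came next with 2 of 37 such members (5.41%, against 2.53% of all genes), and the other 10 arrays had 0.

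MPA 6 was also the highest of the 12 arrays for 13 of 37 members (35.1%), but that share reads against 29.2% of all genes measured. Among the 19 tested members it was highest for 6 (31.6%), against 18.3% of the genes tested. For 7 of the 37 members (18.9%) MPA 6 was both highest and at least 1 unit up, against 0.863% of all genes. Irf1 went the other way, with its lowest value of 5.94 on MPA 6. Mx1, Psmb8 and Psmb9 were not high there, at 5.99, 6.51 and 5.14.

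**Figure D3:**
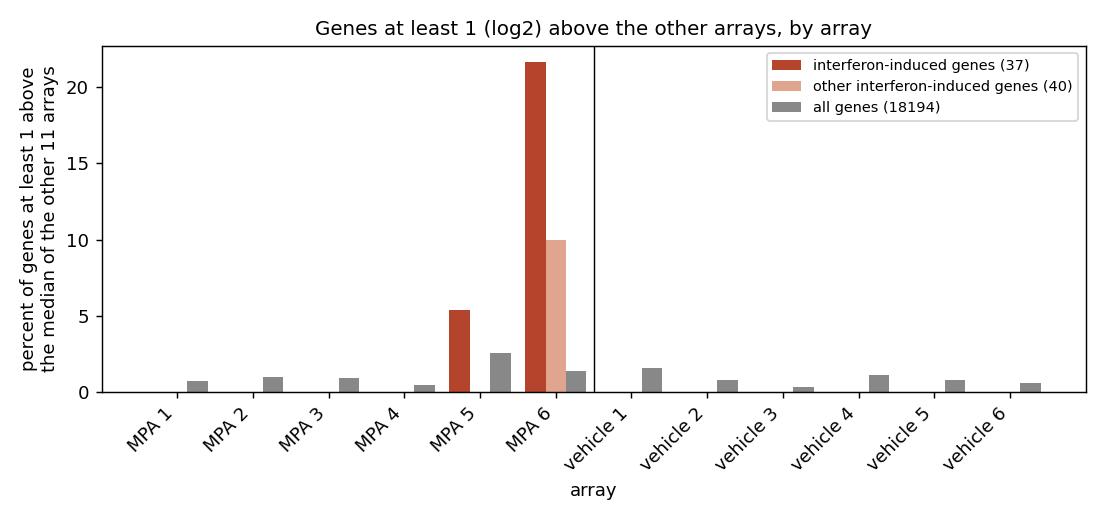
Members on each array (x axis, MPA arrays left of vehicle arrays) set beside the second list of interferon-induced genes and all genes, as the percentage (y axis) at least 1 log2 unit above the median of the other 11 arrays. The members reach 21.6% on MPA 6 and 5.41% on MPA 5, and 0 on the other 10 arrays.

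Other measures were high on MPA 6 too. The fibroblast markers had a centred mean of 0.66 on MPA 6 and 0.74 on MPA 5. That of smooth muscle was 0.03 on MPA 6 and 0.90 on MPA 5, and that of epithelium -0.06 and -0.81. The macrophage markers, centred over the arrays, had a mean of 0.80 on MPA 6 and 0.76 on MPA 5, and their summed linear signal ran between 700 and 2571 on MPA arrays and between 724 and 1417 on vehicle arrays, with Cd68, Adgre1 and C1qa above 4 on no array. The control probe sets of Actb and Gapdh gave the largest 3′ minus 5′ difference on the same array. Of the macrophage markers 7 were tested, all 7 had a positive difference between MPA and vehicle (median 0.69) and 0 were called. Unadjusted, 4 of the 7 had a limma p under 0.05, against 5.00% of all genes tested. The groups did not overlap for 1 of the 7, Aif1, against 0.341% of all genes tested. This list, too, was chosen with earlier results of these data known. Within station 2, Csf1r (-0.91), C1qb (-0.41) and C1qc (-0.12) were negative, while Aif1 (0.96), Tyrobp (0.42), Cd14 (0.41) and Mpeg1 (1.05) stayed positive. On MPA 5, 2 members were at least 1 log2 unit up, and Rsad2 was 0.59 below the median of the other arrays. The part of tissue makeup or of the 3′ minus 5′ difference in the values of MPA 6 and MPA 5 was not tested. Defining markers of lymphocytes were dim, with 10 of 11 T and NK cell markers and 3 of 3 B cell markers above 4 on no array. The same held for 5 of 6 neutrophil markers. Of 4 markers of plasmacytoid dendritic cells, which are known as strong producers of interferon, Siglech and Ccr9 were above 4 on no array, while Tcf4 (8.08 to 9.88 over the 12 arrays) and Ly6d (3.87 to 8.39) were tested; other cell types also express both.

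**Figure D4:**
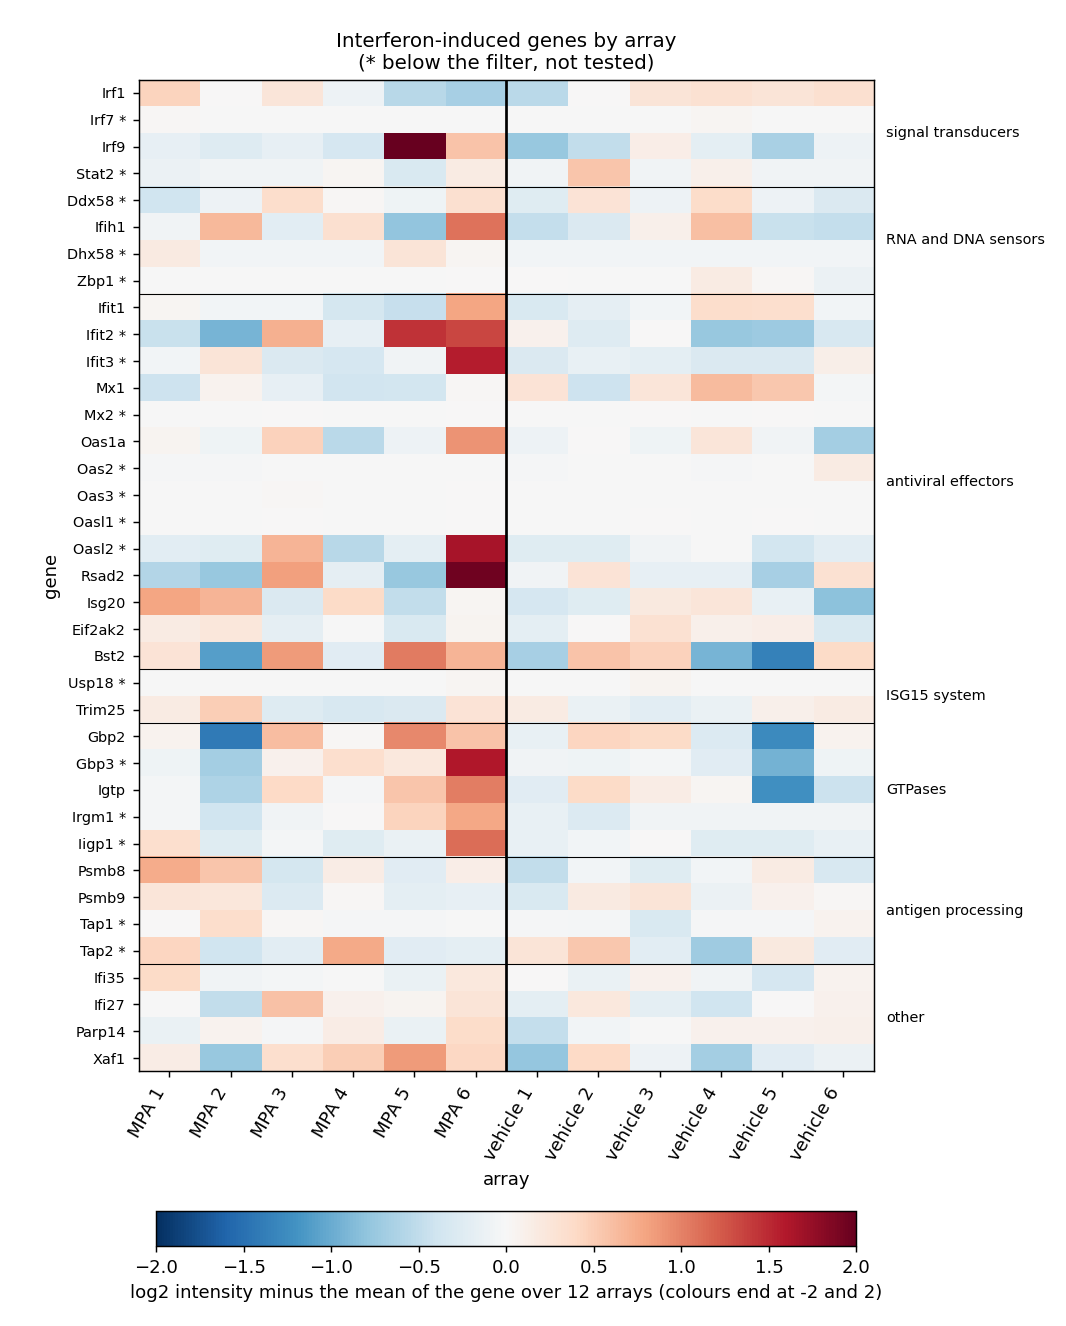
Log2 values of the 37 measured members (rows, by role) on the 12 arrays (columns, MPA left of vehicle), each centred on the mean of the gene, with genes below the filter starred. The column of MPA 6 is high for Rsad2, Oasl2, Ifit3, Gbp3 and Ifit2, and MPA 2 and MPA 5 differ in opposite directions for Bst2 and Gbp2.

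MPA 2 and MPA 5 stood at opposite ends for several members, a pattern also counted after it was seen. They lay on opposite sides of the median of the other 11 arrays for 15 of the 19 tested members (78.9%), against 74.0% of all genes tested. By at least 0.5 log2 units on each side, this was so for 6 of 19 (31.6%), against 14.0%. Bst2, Gbp2, Igtp and Xaf1 were high on MPA 5 and low on MPA 2, and Ifih1 and Isg20 were the reverse. The centred mean of the fibroblast markers was -1.79 on MPA 2 and 0.74 on MPA 5, that of smooth muscle -1.68 and 0.90, and that of epithelium 0.32 and -0.81. Vehicle 4, with a fibroblast mean of -0.88, was low for Bst2, and vehicle 5 was lowest for Bst2 and low for Gbp2 with a fibroblast mean of -0.07. The part of tissue makeup in these values was not tested.

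**Figure D5:**
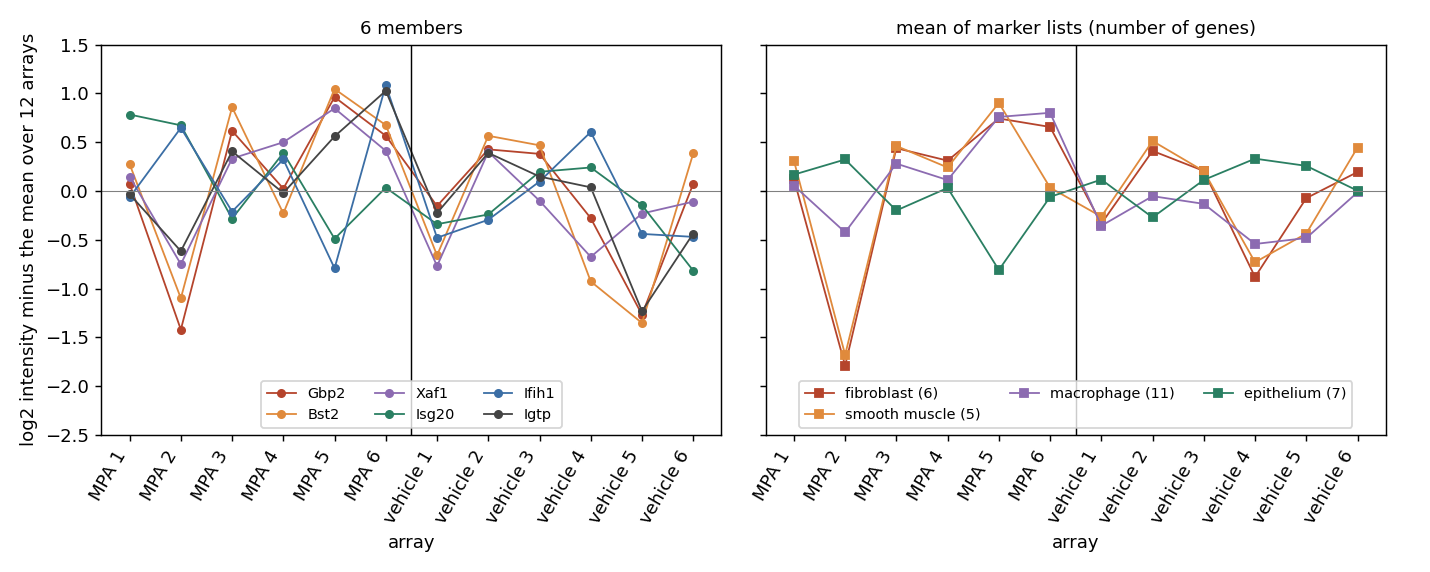
Centred log2 values (y axis) of the members that MPA 2 and MPA 5 split by at least 0.5, beside the centred means of the cell type marker lists, on each array (x axis, MPA left of vehicle). The fibroblast mean is -1.79 on MPA 2, 0.74 on MPA 5 and -0.88 on vehicle 4.

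Genes around the members were read from lists made by pathway, which were also chosen with earlier results of these data known. None of the interferon ligands could be tested: 10 of 21 listed had a probe set, among them Ifnb1, Ifng and 7 of the interferon alpha family, and none exceeded 2.42 on any array, MPA 6 included. Of the receptors and their kinases 9 were tested, 5 positive and 4 negative, 0 called, with a median difference of 0.07. Jak1, the kinase shared by all interferon receptors, had 0.17 (SE 0.08). Ifnar2 and Ifnar1, the receptor chains for interferon alpha and beta, had 0.28 (SE 0.16) and -0.14 (SE 0.12). Ifngr1 and Ifngr2, the chains for interferon gamma, had 0.20 (SE 0.12) and 0.07 (SE 0.22), and the kinase Tyk2 had -0.11 (SE 0.11).

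Upstream, 9 genes of the induction pathway were tested, 5 positive and 4 negative, with 0 called and a median of 0.04. Mavs, the mitochondrial adaptor of RIG-I and MDA5, had 0.34 (SE 0.18), which was -0.05 within station 2. Cgas, the sensor of cytosolic DNA, had 0.04 (SE 0.06), Traf6, an adaptor ligase, had -0.10 (SE 0.20), and Irf3, the transcription factor that switches on interferon beta, had 0.04 (SE 0.11). Among 9 tested negative regulators 6 were positive and 3 negative, with 0 called and a median of 0.05. Ptpn11, a phosphatase, had 0.08 (SE 0.08), Pias1, an inhibitor of STAT binding, had 0.08 (SE 0.14), and Irf2, which competes with Irf1, had -0.09 (SE 0.20). Socs1 lay at the bottom of the scale, at 2.22 to 2.23 on all arrays.

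Of 40 measured genes from a second list of interferon-induced genes, 24 were tested, 17 positive and 7 negative, with 0 called and a median of 0.04. Ifitm3, which blocks viral fusion in endosomes, had the smallest p, with 0.30 (SE 0.08, adjusted p = 0.832 by limma), and 0.34 within station 2. It read 12.13 to 12.36 on MPA arrays and 11.74 to 12.08 on vehicle arrays. Its groups did not overlap, which held for 1 of the 24 tested genes of this list, against 0.341% of all genes tested. Ifi202b, a DNA-binding protein of the p200 family, had -0.63 (SE 0.28, adjusted p = 0.996) and -1.03 within station 2, and Ifitm2, a relative of Ifitm3, had 0.37 (SE 0.19). On this list 4 of the 40 measured genes (10%) were at least 1 unit up on MPA 6. These were Ifi204 (2.23 above the median of the other arrays), Trim30a (1.41), Rtp4 (1.30) and Lgals3bp (1.11). The chemokines Cxcl9, Cxcl10 and Cxcl11, which interferon gamma induces, did not exceed 2.64 on any array.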

How the data were processed

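Cervical total RNA was amplified, labelled with biotin and hybridised to Affymetrix arrays, per the labels' protocols. The deposited value table holds intensity on a linear scale (4.39 to 77974) for 45101 probe sets, and GCRMA, with a version not given in the sources used here, is the tool that the submitters' processing notes name. The design foresaw log2 values, so log2 of the deposited intensity was taken with no pseudocount. The platform annotation pairs 34958 probe sets with 1 symbol and 932 with several, and does not list 9211. Groups came from sample titles.

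The 2 groups were compared in limma 3.58.1 (R 4.3.3), by lmFit and eBayes over 12 arrays without covariates, with p adjusted by Benjamini-Hochberg over 8795 genes. Each log2 difference is MPA minus vehicle, with its moderated SE. The test was tried on simulated data in which the noise was independent between genes. Those data held no shift shared by the genes of an array and no effect of station. The trial therefore cannot show how the test performs where arrays differ as they do here. The members, gene lists and tests were chosen with earlier results of these data known. Values on every array are given for the 8 members with the smallest p and the 4 with the largest SD; each role or pathway list names its smallest p and a few fixed genes, and other genes were named to account for every member or chosen after their values were seen. Probe intensities and detection flags were not used, and levels of different genes were not compared. Alternatives covered the filter, probe set, normalization, pseudocount, variance model, array weights, fluidics station, replicate number and each array left out. Leaving out MPA 2 with MPA 5 was added after seeing the data. Promoters came from RefSeq (GRCm38.p6), figures from matplotlib 3.10.9.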

Additional observations from a re-analysis of the deposited data

Results flagged for a closer look

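In 5 of 46 member groups of 6 arrays (10.9%), 1 array stood apart from the rest by Dixon's criterion. Chance alone meets it in about 1 of 20 groups, and over all genes tested the share was 10.6% of 17590 groups. The 46 include groups of members below the filter, such as the MPA group of Ifit3, which exceeded 4 on MPA 6 only. The share over all genes covers only genes that passed the filter, so these shares come from unlike sets. Irf9 was high on MPA 5 at 7.25, with the next MPA array at 5.39, and Ifit3 was high on MPA 6 at 4.81, with the next at 3.50. Irf1 was low on vehicle 1 at 6.06, with the next vehicle array at 6.60. Parp14 was low on the same array at 6.07, with the next at 6.49. Oas1a was low on vehicle 6 at 3.89, with the next at 4.48.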

How the results depend on the processing

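The count of members called was 0 in all 26 alternatives, with a lowest adjusted p of 0.431; without the filter 37 members entered the fit and 1 had an unadjusted p under 0.05. The median member difference kept its sign in all 26, between 0.06 and 0.32, and between 0.09 and 0.26 with each array left out. Not every alternative could move it: the replicate block and the other variance model alter only the error. The fit with the fluidics station as a block repeats the median found within station 2. The number of members whose groups did not overlap was 0 in 25 alternatives and 8 within station 2, where 2 arrays stand against 2. The number of genes called over the whole table was 1, against 0 without the filter, with the replicate block, within station 2 and without MPA 2 and MPA 5 together. With each array left out, it stayed at 1 without vehicle 1 and was 0 without any other array. The cause was not tested. Station 2 alone held both groups, so the fit with the fluidics station as a block takes its differences from station 2 only. It gives the same differences as the fit within station 2, and the 2 settings are 1 estimate. In that estimate Xaf1 reversed to -0.13 and Rsad2 to -0.50. Rsad2 also reversed to -0.21 without MPA 6, with a range of -0.21 to 0.33 over the arrays left out in turn. Ifi35 reversed to -0.14 when the probe set with the largest variance stood for the gene. The replicate numbers do not pair the arrays: same-numbered arrays deviated together with r of -0.25, -0.60, 0.05, -0.03, -0.46 and 0.05 over the genes. With equal numbers in both groups the replicate block leaves every difference as it is, the median of 0.16 included, and alters only the error; 0 members were called with it. Of 37 measured members, 18 did not pass the filter, and near the bottom of the scale signal over background limits what can be seen.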

Other observations

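The GAS motif TTCNNNGAA, the site of interferon gamma signalling, stood in the promoters of 8 of 29 members (27.6%), against 8.13% of all genes: Bst2, Eif2ak2, Ifit2, Igtp, Irf1, Isg20, Oas1a and Psmb8. Bst2, Igtp and Oas1a held the ISRE core as well. Of the members at least 1 log2 unit up on MPA 6, 4 of 7 with a promoter held the ISRE core, against 7 of 20 of the other measured members. The 2 motifs are letters found in a window, and no test was made of them.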
